A study of Mus musculus with 48 samples.

Results

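The comparison is of RNA captured from the mouse superior colliculus (SC) at postnatal day 14 (P14) with the same capture at P10. Its members are the 3 P14 and 3 P10 libraries of 1 series of title codes, 6 of the 48 libraries of the study, and all genes expressed in them. Both groups are wild-type, naive mice (no axotomy), given 5-ethynyl uridine (EU) by injection into the vitreous of the eye. EU is a uridine analogue that cells build into new RNA, and the captured RNA was then pulled from total RNA of dissected SC through a biotin tag. Each library came from the pooled SC of 3 animals, per the labels' protocol, so differences between animals are averaged within a library. The time from injection to dissection is not given in the sources used here. After a filter on low counts, 16262 of the 54331 listed genes were tested. Levels are normalised CPM, counts scaled to a common library total, and log2 fold changes are P14 over P10 with their standard error (SE).

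The SC is the midbrain target of retinal ganglion cells, the neurons whose axons leave the eye in the optic nerve. Between these ages the axons of mice refine their terminal arbors, oligodendrocytes wrap central axons in myelin, sodium and potassium channels gather at nodes of Ranvier, and the eyes open. Growth-associated and immature tubulin genes are known to be high while axons extend and to be lower in mature neurons. RNAs made in the retina after the injection can reach the SC inside these axons, and the design text names polyadenylated RNA in these axons as its object.

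Total estimated counts were 21487476 to 23308411 in the P14 libraries and 8608981 to 11425404 in the P10 libraries. The ribosomal RNA gene CT010467.1 held 10.9%, 4.54% and 33.7% of all counts in P14 replicates 1 to 3, against 0.923%, 27.9% and 0.437% in P10 replicates 1 to 3. P14 replicate 3 stood apart: over log2 levels its correlation with the other P14 libraries was 0.866 and 0.895, and with the P10 libraries it was 0.858 to 0.891. RNA of cells resident in the SC was present at both ages. Of 18 midbrain transcription factor genes 16 were tested and 0 were called, with a median log2 fold change of 0, and their summed level was 476 to 586 CPM at P14 and 634 to 839 CPM at P10. Members lay on both sides, with Tfap2b at -1.31 (adjusted p = 0.052), Gata2 at 1.19, Gata3 at 0.51 and Meis2 at -0.16. Of 17 retinal ganglion cell markers 14 were tested and 0 were called, with a summed level of 821 to 1416 CPM at P14 and 954 to 1024 CPM at P10. Most of this sum was Thy1, which is not limited to retinal ganglion cells in brain tissue and averaged 883 and 775 CPM at P14 and P10. Pou4f2 had 0, 0 and 0.849 CPM at P14, against 0.618, 0.193 and 9.2 CPM at P10. Other members lay on both sides, with log2 fold changes of -4.53 for Chrna6, -1.22 for Slc17a6 and 1.05 for Nrn1. For rod photoreceptors 4 of 14 markers passed the filter, and they summed to 16 to 30.3 CPM at P14 and 13.3 to 42.4 CPM at P10. The share of each result below that comes from RNA of resident cells was not tested. In these bulk libraries, fewer cells of a type and less RNA per cell cannot be told apart.

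With all 6 libraries in the fit, myelin genes and several genes of mature axons and synapses rose at P14. Ribosomal protein genes, growth and immature neuron genes and the radial glial gene Fabp7 fell. At an adjusted p under 0.05, 148 of 16262 genes were higher at P14 (0.91% of the tested genes) and 182 were lower (1.12%), together 330 genes (2.03%). In all 330 of them the 3 libraries of one age lay above the 3 of the other. Over all tested genes this held for 4176 (25.7%), of which 13.0% of genes had P14 above and 12.6% had P14 below. At an unadjusted p under 0.05 there were 2982 genes. The biological coefficient of variation, the spread between libraries of an age beyond counting error, was 0.638, and the number of calls turned on single libraries. It was 29 without P10 replicate 1, 43 without P14 replicate 1, 102, 95 and 139 without P10 replicate 2, P10 replicate 3 and P14 replicate 2, and 2092 without P14 replicate 3. With 1 library left out, calls fell to as few as 0 in the lists of node, synaptic vesicle and growth cone genes below.

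**Figure D1:**
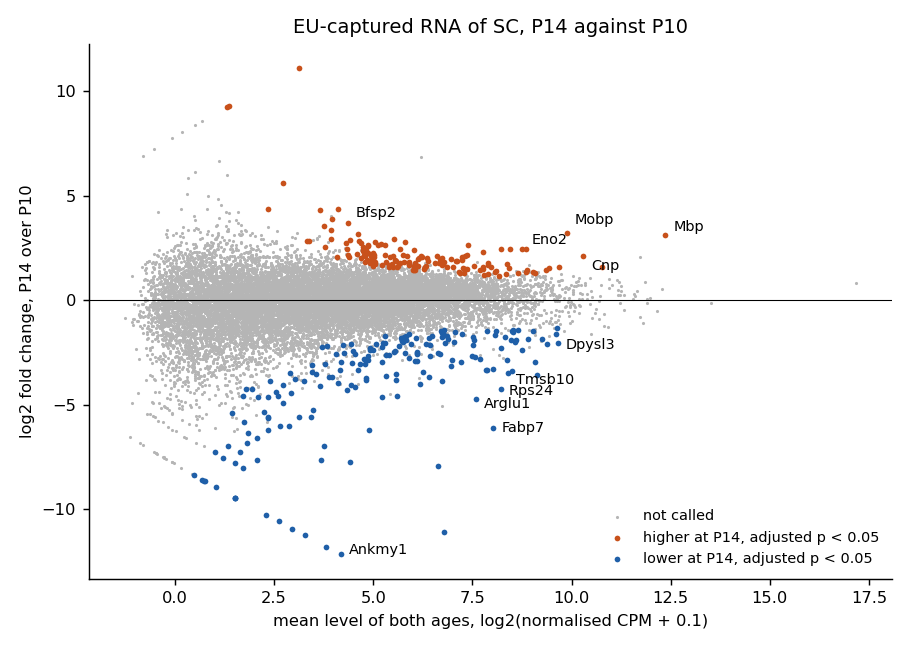
Each point is 1 of the 16262 tested genes. The x axis is the log2 mean level of both ages in normalised CPM plus 0.1, and the y axis is the log2 fold change of P14 over P10. The 148 genes called higher (orange) reach the highest levels with Mbp, and the 182 called lower (blue) reach furthest from 0, where genes such as Ankmy1 have no counts at P14.

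Myelin genes gave the clearest rise. Of 22 mature myelin genes, all tested, 11 were higher at P14 and 0 were lower, with a median log2 fold change of 2.14, against 0.03 over all tested genes. Summed over the list, P14 replicates 1 to 3 had 15324, 17762 and 13240 CPM, against 2106, 1810 and 2928 CPM in P10 replicates 1 to 3. The list's genes make the sheath that oligodendrocytes wind around axons, and the part of RNA from oligodendrocytes of the SC in this rise was not tested. With 2 further P14 libraries of another title series in the P14 group, 0 of the 22 were called, and with 1 library left out 3 to 12 were, the fewest without P10 replicate 1 and the most without P14 replicate 3.

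Mobp, which encodes a small basic protein of compact myelin (chromosome 9, 120149707 to 120181484), had 1582, 2002 and 1548 CPM at P14, against 180, 139 and 224 CPM at P10. Its log2 fold change was 3.24 ± 0.33 with an adjusted p of 0.0019, and the 2 ages were far apart in every library. Mbp, the basic protein that compacts the myelin membrane, had 10073, 11442 and 6832 CPM at P14, against 901, 1002 and 1354 CPM at P10 (3.12 ± 0.37, adjusted p = 0.0035). Cnp, an enzyme of the cytoplasmic channels of myelin, had 2011, 2283 and 1853 CPM at P14, against 473, 372 and 549 CPM at P10 (2.14 ± 0.3, adjusted p = 0.0085). P14 replicate 3 had the lowest Mbp of its group and still lay far above the highest P10 library. Fa2h, which makes the hydroxylated lipids of myelin, had 74.4, 97.5 and 69.1 CPM at P14, against 8.97, 7.64 and 15.4 CPM at P10 (2.91 ± 0.4). Opalin, a membrane protein of mature oligodendrocytes (chromosome 19, 41061710 to 41077113), had 49, 47.5 and 52.8 CPM at P14, against 11.1, 7.06 and 5.84 CPM at P10 (2.64 ± 0.41). Both were called, with adjusted p of 0.0066 and 0.013. Other called members were Mag, the adhesion molecule of the sheath's inner face, Trf, which carries iron, Mal and Pllp, proteolipids of the membrane, and Myrf, the transcription factor that drives the myelin programme. The log2 fold changes of these 5 ran from 1.96 for Pllp to 2.48 for Mag.

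Among 16 genes of oligodendrocyte precursors and the wider lineage, 2 were higher and 0 lower, with a median of 0.49. They were Gpr17, a receptor of cells committed to differentiate, at 357, 473 and 266 CPM at P14, against 93.5, 147 and 83.4 CPM at P10 (1.76 ± 0.34, adjusted p = 0.029), and Bcas1, a marker of early myelinating cells, at 170, 238 and 258 CPM at P14, against 89.9, 77.5 and 101 CPM at P10 (1.31 ± 0.29, adjusted p = 0.048). The precursor markers Pdgfra and Cspg4 averaged 19.1 and 95 CPM at P14, against 13.3 and 95.6 CPM at P10, and were not called. Summed levels of this lineage list overlapped between the ages, at 1833 to 2139 CPM at P14 and 1188 to 1946 CPM at P10. With 1 library left out, Gpr17 and Bcas1 were each called in 1 of 6 fits. Neither was called with the 2 further P14 libraries in the P14 group.

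Since myelin genes moved together, the bases before the starts of 2 of them are shown, from RefSeq on GRCm38.p6 and 5′ to 3′. Capitals mark ACAAAG or its reverse complement CTTTGT, the core that SOX factors such as Sox10 are known to bind. The motif was chosen after several had been tried. Mobp (chr9:120149492-120149741, plus strand) held 6 matches and Cnp (chr11:100574689-100574938, plus strand) held 1.
Mobp: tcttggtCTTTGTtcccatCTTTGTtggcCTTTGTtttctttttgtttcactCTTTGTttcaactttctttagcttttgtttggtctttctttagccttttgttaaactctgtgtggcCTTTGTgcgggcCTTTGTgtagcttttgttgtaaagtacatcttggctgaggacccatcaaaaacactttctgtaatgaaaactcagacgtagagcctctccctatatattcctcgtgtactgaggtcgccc
Cnp: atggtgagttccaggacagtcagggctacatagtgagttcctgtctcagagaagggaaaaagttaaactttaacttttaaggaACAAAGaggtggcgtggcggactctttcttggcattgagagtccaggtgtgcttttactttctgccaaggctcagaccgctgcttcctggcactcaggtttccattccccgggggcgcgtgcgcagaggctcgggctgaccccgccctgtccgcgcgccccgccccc
Of 16 mature myelin genes with an entry, 6 (37.5%) had a match in these 250 bases on either strand, against 18.6% of 27025 genes. A match describes the letters in this window and says nothing of binding.

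**Figure D2:**
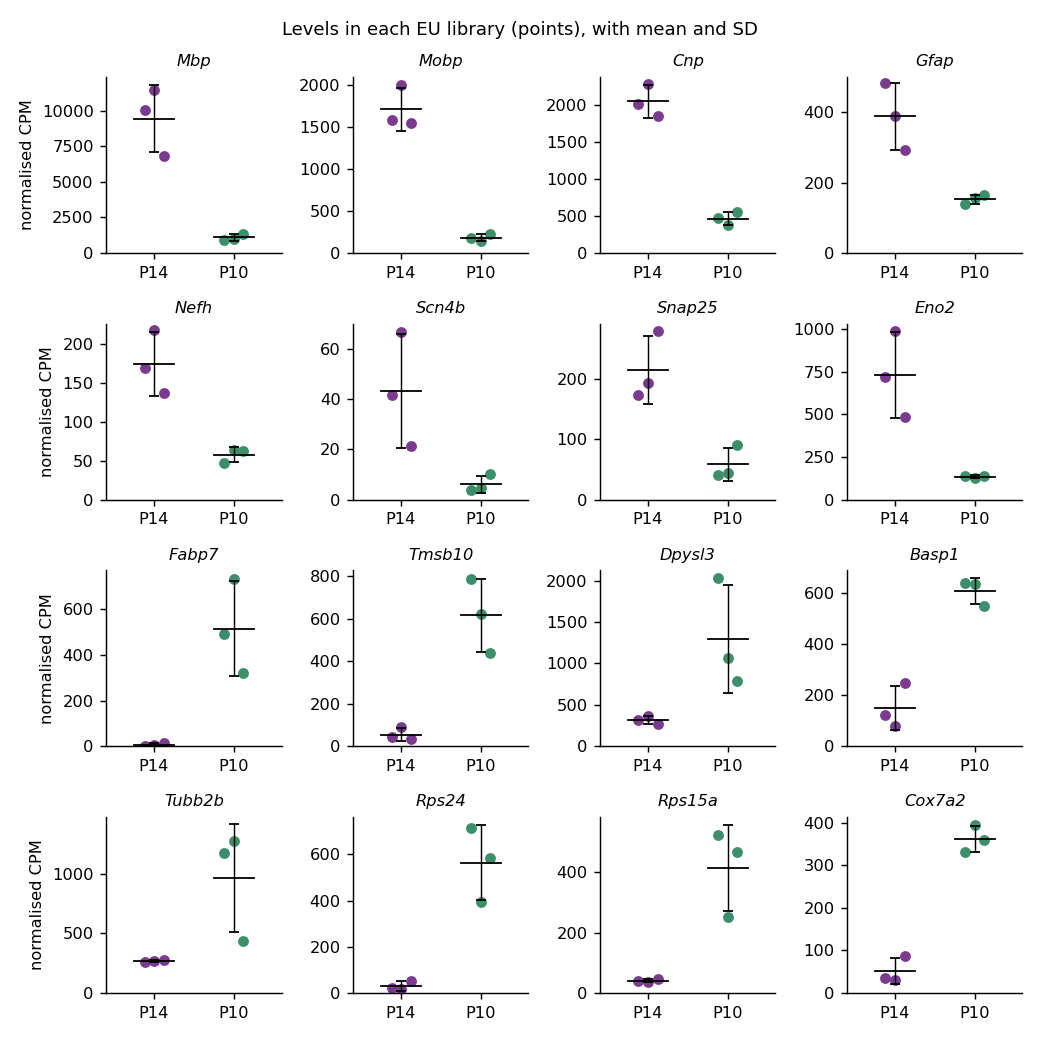
Normalised CPM of 16 genes in each library (points; P14 left, P10 right), with the mean (line) and SD (bars), n = 3 each. In the upper 8 panels every P14 library is above every P10 library, and in the lower 8 every P14 library is below.

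Other glial genes gave few calls. Of 18 astrocyte genes 3 were higher and 0 lower, with a median of 0.57, and their summed level was 6828 to 8563 CPM at P14 and 3430 to 5781 CPM at P10. Gfap, the intermediate filament of astrocytes, had 483, 389 and 294 CPM at P14, against 139, 155 and 165 CPM at P10 (1.35 ± 0.29, adjusted p = 0.043). Aldoc, the brain aldolase enriched in astrocytes, had 3110, 3161 and 1624 CPM at P14, against 865, 707 and 1048 CPM at P10 (1.59 ± 0.35, adjusted p = 0.046). The third was Ntsr2, a neurotensin receptor (1.71 ± 0.36, adjusted p = 0.038), while the glutamate transporter Slc1a2 and the water channel Aqp4 had log2 fold changes of 0.19 and 0.07 and were not called. With 1 library left out, Gfap, Aldoc and Ntsr2 were each called in 1 of 6 fits. None of the 3 was called with the 2 further P14 libraries in the P14 group.

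Of 16 genes of cycling cells and radial glia, 1 was lower and 0 higher, with a median of -1.21. It was Fabp7 (chromosome 10, 57784881 to 57788450), the brain lipid-binding protein of radial glia and young astrocytes. Fabp7 had 2.34, 5.17 and 14.7 CPM at P14, against 492, 734 and 319 CPM at P10 (-6.13 ± 0.68, adjusted p = 0.0027). The 2 ages did not overlap, and P14 replicate 3 was the highest of its group. Of the rest, Ccnb1, a mitotic cyclin, averaged 0.139 CPM at P14 and 3.01 CPM at P10, and the proliferation marker Mki67 averaged 0.328 CPM at P14 and 4.29 CPM at P10, without a call. Pcna, a clamp of DNA replication, lay the other way, at 49.9, 37.4 and 21.4 CPM at P14, against 7.01, 13.7 and 9.36 CPM at P10, and was not called either (1.85 ± 0.48, adjusted p = 0.069). Of 15 microglial, 15 endothelial and pericyte, 6 red blood cell and 9 choroid plexus and meningeal genes tested, 0 were called, against 2.03% of all tested genes. Microglial markers summed to 422 to 537 CPM at P14 and 403 to 420 CPM at P10, and haemoglobin and other red cell genes to 2978 to 18121 CPM at P14 and 4344 to 13638 CPM at P10.

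Genes of the node and of mature axons rose in part. Of 16 genes of the axon initial segment and node, 3 were higher and 0 lower, with a median of 0.49. Scn4b, an auxiliary sodium channel subunit linked to fast repetitive firing (chromosome 9, 45138395 to 45154152), had 41.6, 66.8 and 21.2 CPM at P14, against 3.81, 4.45 and 10 CPM at P10 (2.82 ± 0.57, adjusted p = 0.034). Kcna1, a potassium channel that sits beside nodes, had 175, 257 and 169 CPM at P14, against 41.2, 31 and 78.4 CPM at P10 (1.99 ± 0.39, adjusted p = 0.03). Nfasc, an adhesion molecule that anchors node and paranode, had 781, 1243 and 849 CPM at P14, against 347, 308 and 387 CPM at P10 (1.46 ± 0.3, adjusted p = 0.036). No library of one age reached the range of the other for these 3 genes. With 1 library left out, Scn4b and Kcna1 were called in 2 of 6 fits and Nfasc in 1. With the 2 further P14 libraries in the P14 group, none of the 3 was called. Nfasc is also made by oligodendrocytes, as the partner on the glial side of the paranode.

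Of 29 potassium and HCN channel genes tested, 3 were higher and 0 lower: Kcna1, its beta subunit Kcnab2 (1.48 ± 0.27, adjusted p = 0.024) and Kcnj9, a subunit of G protein-gated channels (1.62 ± 0.33, adjusted p = 0.036). Of 24 sodium and calcium channel genes, Scn4b was higher and Scn3b lower. Scn3b, the beta subunit known to be early in brain development, had 5.16, 7.05 and 7.81 CPM at P14, against 28.9, 35.8 and 53.9 CPM at P10 (-2.57 ± 0.45, adjusted p = 0.021), the opposite way to Scn4b. Among the pore-forming subunits, Scn8a, the adult nodal channel, had 357, 397 and 457 CPM at P14, against 271, 196 and 267 CPM at P10, and Scn3a, an early channel, had 64.5, 110 and 96.1 CPM at P14, against 248, 189 and 199 CPM at P10. Neither group pair overlapped, but the adjusted p was 0.2 for Scn8a (0.72 ± 0.28) and 0.062 for Scn3a (-1.23 ± 0.31). With 1 library left out, Kcnab2 and Kcnj9 were called in 1 of 6 fits and Scn3b in 2.

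Of 5 neurofilament genes 1 was higher. Nefh, the heavy subunit that is added as axons mature and thicken (chromosome 11, 4938754 to 4948064), had 169, 218 and 137 CPM at P14, against 46.9, 63.4 and 63.1 CPM at P10 (1.6 ± 0.31, adjusted p = 0.029). The light and medium subunits Nefl and Nefm had log2 fold changes of 0.08 ± 0.28 and 0.18 ± 0.36 and were not called. Hapln4, a link protein of perineuronal and perinodal matrix, was the 1 of 12 tested matrix genes that rose (1.9 ± 0.43, adjusted p = 0.049). A calcium buffer of fast-firing neurons was chosen after its values were seen. Pvalb had 42.1, 57.1 and 34.8 CPM at P14, against 10.1, 6.77 and 12.6 CPM at P10 (2.18 ± 0.43, adjusted p = 0.031). With 1 library left out, Nefh, Hapln4 and Pvalb were each called in 1 of 6 fits.

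Of 31 synaptic vesicle and SNARE genes, 4 were higher and 1 lower, with a median of 0.3. Snap25, a SNARE protein of the presynaptic membrane, had 172, 192 and 278 CPM at P14, against 40.5, 43.4 and 90.3 CPM at P10 (1.88 ± 0.38, adjusted p = 0.034). Doc2a and Syt2, calcium sensors of vesicle release, and Rph3a, a Rab3 effector on vesicles, were the other 3 higher genes, with log2 fold changes of 1.79, 1.33 and 1.54. Napb, a SNAP protein that helps take SNARE complexes apart, went the other way, at 25.4, 36.8 and 82.3 CPM at P14, against 263, 196 and 465 CPM at P10 (-2.68 ± 0.48, adjusted p = 0.023). Syngr1, a vesicle membrane protein chosen after its values were seen, had 563, 618 and 317 CPM at P14, against 84.1, 109 and 83.8 CPM at P10 (2.44 ± 0.34, adjusted p = 0.007). Of 18 immediate early genes tested 1 rose, Arc, which is transcribed on neuronal activity. Arc had 44.1, 70.4 and 27.7 CPM at P14, against 5.77, 14.6 and 6.4 CPM at P10 (2.41 ± 0.52, adjusted p = 0.042), while Fos had 11, 27.1 and 12.1 CPM at P14, against 3.19, 6.19 and 2.48 CPM at P10 and was not called (adjusted p = 0.11). With 1 library left out, Syngr1 was called in 5 of 6 fits, Snap25 and Napb in 2, and Doc2a, Syt2, Rph3a and Arc in 1. With the 2 further P14 libraries in the P14 group, none of these genes was called.

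Receptor genes gave no calls. Of 16 GABA-A and glycine receptor genes, 17 ionotropic glutamate receptor genes, 19 postsynaptic scaffold genes and 18 active zone genes, 0 were called. Over all tested genes 2.03% were called, so 0 calls in lists of this size does not set them apart. The GABA-A subunit Gabra3, known from development, had 0.682, 0.778 and 2.55 CPM at P14, against 6.29, 3.39 and 22.9 CPM at P10. The ages did not overlap, but the error was large (-3.02 ± 0.94, adjusted p = 0.11), and with the 2 further P14 libraries included its log2 fold change was 1.1. Of the NMDA receptor subunits, Grin2a averaged 30.1 and 30.3 CPM at P14 and P10, and Grin2b 216 and 253 CPM. The chloride exporter Slc12a5 (KCC2), which lowers chloride in maturing neurons, had 591, 489 and 383 CPM at P14, against 174, 248 and 224 CPM at P10 (1.18 ± 0.3, adjusted p = 0.064). Its P14 libraries all lay above its P10 libraries, as 13.0% of all genes did.

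**Figure D3:**
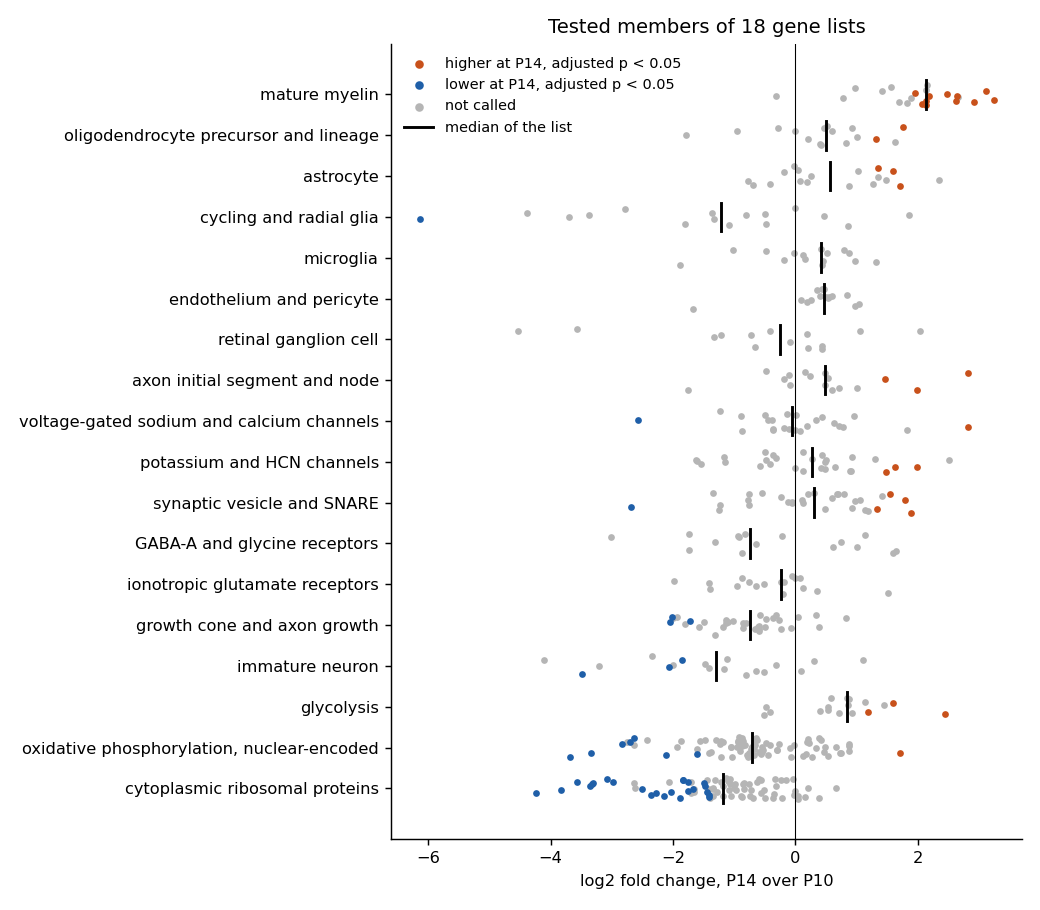
Log2 fold change of P14 over P10 for every tested member of 18 of the 40 gene lists (points, spread vertically for sight), with the median of each list as a black bar. Calls higher at P14 (orange) gather in the mature myelin row and calls lower (blue) in the bottom 2 rows and the growth rows.

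Growth and immature neuron genes fell in part. Of 34 genes of growth cones and axon growth, 3 were lower and 0 higher, with a median of -0.74, and their summed level was 6573, 7332 and 7019 CPM at P14, against 13304, 12535 and 9873 CPM at P10. Dpysl3, a collapsin response mediator of growth cones, had 314, 361 and 267 CPM at P14, against 2035, 1061 and 793 CPM at P10 (-2.05 ± 0.38, adjusted p = 0.025). Basp1, a membrane-bound substrate of protein kinase C in growth cones (chromosome 15, 25363277 to 25413764), had 122, 80.5 and 246 CPM at P14, against 637, 634 and 547 CPM at P10 (-2.02 ± 0.4, adjusted p = 0.031). The third was Plxna2, a semaphorin receptor (-1.72 ± 0.35, adjusted p = 0.035). Gap43, the best-known growth-associated gene, had 802, 1202 and 762 CPM at P14, against 1665, 1647 and 868 CPM at P10 and was not called, and 1 P10 library lay inside the P14 range (-0.6 ± 0.35, adjusted p = 0.4). With 1 library left out, Dpysl3 was called in 2 of 6 fits and Basp1 and Plxna2 in 1. None of the 3 was called with the 2 further P14 libraries in the P14 group.

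Of 18 tested immature neuron genes, 3 were lower and 0 higher, with a median of -1.29. Tmsb10, an actin-binding thymosin (chromosome 6, 72957347 to 72958748), had 41.2, 89.1 and 34.7 CPM at P14, against 786, 623 and 439 CPM at P10 (-3.48 ± 0.43, adjusted p = 0.0041). Nnat, an imprinted gene of the developing brain, had 278, 261 and 226 CPM at P14, against 1426, 1022 and 760 CPM at P10 (-2.07 ± 0.32, adjusted p = 0.013). Both fell in every library, and the third, Tubb2b, is a beta-tubulin of young neurons. Tubb2b had 257, 270 and 272 CPM at P14, against 1172, 1270 and 439 CPM at P10 (-1.85 ± 0.39, adjusted p = 0.039). Tubb4a, a beta-tubulin of mature axons and oligodendrocytes, had 1178, 1507 and 997 CPM at P14, against 436, 384 and 396 CPM at P10 (1.6 ± 0.29, adjusted p = 0.024), so that 2 members of 1 family moved in opposite directions. Dcx, a microtubule protein of migrating neurons, was low and spread, with a mean of 2 and 7.98 CPM at P14 and P10. St8sia2, which adds polysialic acid to the adhesion molecule NCAM and was chosen after its values were seen, had 6.22, 9.11 and 13.6 CPM at P14, against 46.7, 71.4 and 32.8 CPM at P10 (-2.38 ± 0.46, adjusted p = 0.03). With 1 library left out, Tmsb10 was called in 6 of 6 fits, Nnat in 4, Tubb2b in 2, and Tubb4a and St8sia2 in 1. None of these genes was called with the 2 further P14 libraries in the P14 group.

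Transport and microtubule-binding genes moved little as lists. Of 27 kinesin, dynein and dynactin genes the dynactin subunit Dctn4 was the 1 lower (-2.58 ± 0.54, adjusted p = 0.038), and of 14 microtubule-associated protein genes Map7 was the 1 higher (2.11 ± 0.44, adjusted p = 0.037). Meg3, an imprinted long noncoding RNA, had 10984, 12823 and 9796 CPM at P14, against 14072, 11801 and 11012 CPM at P10 (-0.13 ± 0.33, adjusted p = 0.88). Of 14 long noncoding RNAs the 1 called was Gas5, the host of small nucleolar RNAs, whose RNA also begins with the start sequence of translation-machinery genes. Gas5 had 2.39, 6.13 and 10.1 CPM at P14, against 76.1, 116 and 72.8 CPM at P10 (-3.83 ± 0.53, adjusted p = 0.007).

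Ribosomal protein genes gave the largest group of falls. Of 82 tested genes of the cytoplasmic ribosome (85 in the list), 24 were lower at P14 and 0 higher, with a median of -1.18, and in 59 of them every P14 library lay below every P10 library. Their summed level was 26520, 36426 and 24250 CPM at P14, against 61020, 49597 and 45451 CPM at P10. Rps24 (chromosome 14, 24487125 to 24496959), a small-subunit protein, had 20.6, 16.4 and 53.6 CPM at P14, against 715, 395 and 584 CPM at P10 (-4.23 ± 0.49, adjusted p = 0.0035). Rps15a (chromosome 7, 118104372 to 118116188) had 40.4, 36.5 and 46.3 CPM at P14, against 522, 253 and 468 CPM at P10 (-3.33 ± 0.35, adjusted p = 0.0025). Rpl31 (chromosome 1, 39367842 to 39371911), of the large subunit, had 58.1, 65.7 and 78.6 CPM at P14, against 298, 340 and 262 CPM at P10 (-2.15 ± 0.29, adjusted p = 0.0066). Log2 fold changes ranged widely over the list, whose proteins are needed in equal numbers. Rpsa averaged 1808 and 1570 CPM at P14 and P10 and was not called. Many of these genes have near-identical processed copies that can share their reads, so single levels are uncertain. With 2 further P14 libraries in the P14 group 3 of the 82 were called, all lower. With 1 library left out 2 to 38 were, the fewest without P14 replicate 1 and the most without P14 replicate 3.

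The starts of such genes are known to carry a run of pyrimidines that ties their translation to growth signals. The 20 bases before and 30 after the annotated start are shown for the 3 genes above, from RefSeq on GRCm38.p6, 5′ to 3′. The longest run of C and T on either side of the start is in capitals. In Rps15a and Rpl31 it lies wholly in the 20 bases before the annotated start, outside the annotated RNA, and in Rps24 it spans the start. They are Rps24 at chr14:24490658-24490707 on the plus strand (the first of 2 entries), Rps15a at chr7:118116118-118116167 on the minus strand, and Rpl31 at chr1:39367831-39367880 on the plus strand.
Rps24: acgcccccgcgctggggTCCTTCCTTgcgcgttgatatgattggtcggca
Rps15a: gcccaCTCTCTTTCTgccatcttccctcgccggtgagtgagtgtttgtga
Rpl31: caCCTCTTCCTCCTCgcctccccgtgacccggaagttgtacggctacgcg
A run of 10 or more occurred in this window in 27 of 65 ribosomal protein genes with an entry (41.5%), against 10.1% of 27025 genes. The median longest run was 9 and 5 bases in the 2 sets. These counts take in runs before the annotated start as well as after it. The feature was chosen after other motifs had been tried, and both sets were taken whole, called or not.

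Short genes held most of the genes called lower. Tested genes were put into 5 classes of like size by exon length. This length joins all annotated exons of a gene and can exceed the length of its RNA. By it Rps24 and Rps15a, at 6256 and 6270 bases, fell in the class of 4901 to 7294 bases. In the class of shortest genes (165 to 2132 bases), 105 of 3251 were lower (3.23%), against 0.4% to 0.677% in the other 4 classes, and the median was -0.25. Without the ribosomal protein genes, 88 of 3199 genes of this class were lower (2.75%). Pseudogenes, many of them copies of ribosomal protein genes, were lower in 33 of 520 and higher in 1. Of the 24 called ribosomal protein genes 17 lie in this class. With the trend of fold change on length removed, 116 genes were higher and 135 lower, among them 16 ribosomal protein genes.

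Of 81 tested nuclear genes of oxidative phosphorylation, 7 were lower and 1 higher, with a median of -0.71. Cox7a2, a subunit of cytochrome c oxidase, had 35.7, 31.3 and 85.7 CPM at P14, against 332, 394 and 358 CPM at P10 (-2.83 ± 0.41, adjusted p = 0.0089). Ndufa4 had 50.1, 32.5 and 69.9 CPM at P14, against 307, 345 and 336 CPM at P10 (-2.7 ± 0.34, adjusted p = 0.0046). Both are short genes and were low in all 3 P14 libraries, and Ndufa5, Ndufs4, Uqcrb, Atp5k and Atp5mpl fell by 1.6 to 3.68. Sdhd, of complex II, was the 1 higher (1.71). Glycolysis genes went the other way, with 3 of 17 higher, 0 lower and a median of 0.85. Eno2, the neuronal enolase (chromosome 6, 124760053 to 124769673), had 719, 988 and 482 CPM at P14, against 141, 125 and 138 CPM at P10 (2.44 ± 0.33, adjusted p = 0.0066). The other 2 were Aldoc, given above, and Pfkm, the muscle-type phosphofructokinase, with 455, 410 and 342 CPM at P14, against 180, 178 and 172 CPM at P10 (1.19 ± 0.27, adjusted p = 0.05, under the threshold before rounding). With 1 library left out, Eno2 was called in 5 of 6 fits and Aldoc and Pfkm in 1. With the 2 further P14 libraries in the P14 group none of these 3 was called. Eno2 had 69.7 and 157 CPM in those libraries, the first below and the second above every P10 library. The 13 mitochondrially encoded genes were not called. Their summed level was 7311, 3842 and 7757 CPM at P14, against 1378, 1295 and 21246 CPM at P10, with P10 replicate 3 far above the others. Proteasome, chaperone, cholesterol synthesis, CaM kinase, RNA-binding, DNA methylation, neuropeptide and GABA transport lists also had 0 calls, against 2.03% of all tested genes.

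Among single genes, the 12 largest rises that met the naming rule were Lrrc71, Bfsp2, Mobp, Mcam, Mbp, Fa2h, Lpcat4, Scn4b, Gprc5b, Pank4, Apln and Rec8. Bfsp2, best known as a filament protein of the eye lens (chromosome 9, 103424924 to 103480420), had 27.4, 51.7 and 34 CPM at P14, against 1.34, 3.58 and 3.84 CPM at P10 (3.68 ± 0.56, adjusted p = 0.012). Gprc5b, an orphan receptor, had 112, 94.7 and 86.8 CPM at P14, against 9.48, 12.7 and 20.3 CPM at P10 (2.78 ± 0.38, adjusted p = 0.0066). Lrrc71 had 41.9, 36.1 and 20.1 CPM at P14, against 0, 0.967 and 3.6 CPM at P10 (4.39 ± 0.99, adjusted p = 0.049). These 3 were low at P10 in every library, and the rest of the 12 had log2 fold changes of 2.75 to 3.24. They include Mcam, an adhesion molecule, Apln, the apelin peptide, Lpcat4, an enzyme of phospholipid remodelling, and Rec8, a cohesin subunit of meiosis. In 2 further P14 libraries of another title series, Bfsp2 had 0.297 and 22.5 CPM, Lrrc71 0 and 3.75 CPM and Gprc5b 25.2 and 76.7 CPM. Of these 3 genes, only Gprc5b lay above every P10 library in both.

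The 12 largest falls were Ankmy1, Fabp7, Arglu1, Eno1b, Lyrm4, Lypd6, Rps24, Hnrnpa0, Pan3, Efcab2, Cbx3 and Gas5. Arglu1, a cofactor of transcription and splicing (chromosome 8, 8665075 to 8690521), had 7.5, 9.29 and 24.7 CPM at P14, against 587, 223 and 303 CPM at P10 (-4.75 ± 0.56, adjusted p = 0.0035). Cbx3, the heterochromatin protein HP1 gamma, had 6.05, 10.8 and 23.8 CPM at P14, against 287, 56 and 252 CPM at P10 (-3.87 ± 0.66, adjusted p = 0.019). Lyrm4, of iron-sulfur cluster assembly, had 2.47, 2.98 and 6.4 CPM at P14, against 153, 42.7 and 83.1 CPM at P10 (-4.56 ± 0.58, adjusted p = 0.0046). In each of the 3, P14 replicate 3 was the highest P14 library and P10 replicate 2 the lowest P10 library. Eno1b is a near copy of Eno1 and its level is uncertain, at 2, 3.2 and 3.51 CPM at P14, against 188, 11.4 and 15.2 CPM at P10. Several of the falls were not seen in both of 2 further P14 libraries of another title series. There Lypd6 had 57.8 and 27.3 CPM, against 23.1, 25.3 and 66.6 CPM at P10. Efcab2 had 54 and 8.1 CPM, Hnrnpa0 40.3 and 6.65 CPM and Eno1b 3.86 and 314 CPM. For Ankmy1, Fabp7, Arglu1, Cbx3 and Gas5 both of these libraries lay below every P10 library.

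Called genes with no counts at one age numbered 17, of which 14 had none at P14 and 3 none at P10. Ankmy1 (chromosome 1, 92859803 to 92902906) had 0 CPM in all 3 P14 libraries, against 42.2, 34.2 and 31.9 CPM at P10. With 3 counts over the whole P14 group as the floor (0.0476 CPM), it was at least 758-fold lower at P14. Krt18, an epithelial keratin, also had 0 CPM at P14, against 5.15, 6.09 and 5.36 CPM at P10, and was at least 116-fold lower. Both also read 0 in the 2 further P14 libraries of the other title series, and Krt18 was chosen after its values were seen. Floors cover counting error only. At P10 the 3 genes without counts were a pseudogene and 2 antisense genes.

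Libraries labelled axon-TRAP, which the design text describes as ribosome-bound RNA, came from the SC at the same ages, 3 at P14 and 3 at P10, none shared with the EU comparison. Their labels give wild type and the EU capture protocol and state no ribosome tag or pull-down steps, so how these libraries were made rests on the technique label and the design text. In these TRAP libraries, 0 of 15752 genes were called by edgeR (0.0%), with 2275 at an unadjusted p under 0.05 and 760 with DESeq2; without TRAP P10 replicate 1 the count was 235. Of the genes called in EU libraries and tested in both, 123 of 146 higher genes (84.2%) and 130 of 149 lower genes (87.2%) had the same sign in TRAP, against 56.1% of all 14304 genes tested in both. All 22 mature myelin genes had a positive TRAP log2 fold change, with a median of 1.96, and 80 of 82 ribosomal protein genes had a negative one, with a median of -1.51. All 17 immature neuron genes tested in TRAP were negative. The median TRAP value of all genes tested in both was 0.02. TRAP values also followed exon length, with a median of -0.63 in the class of shortest genes and 0.34 in that of the longest. Of the 82 ribosomal protein genes 52 are in the class of shortest genes, and the part of length in their TRAP values was not tested.

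Mobp had 2535, 458 and 1259 CPM in TRAP at P14, against 157, 50.8 and 150 CPM at P10 (3.46 ± 0.68, adjusted p = 0.15). Tmsb10 had 22.1, 28.7 and 18.1 CPM in TRAP at P14, against 88.5, 542 and 140 CPM at P10 (-3.6 ± 0.7, adjusted p = 0.15). Neither gene's ages overlapped in TRAP, though neither was called. Fabp7 was less far apart there, at 300, 121 and 61.7 CPM at P14, against 340, 811 and 241 CPM at P10. Lrrc71 had the opposite sign in TRAP (-2.73). The test of the difference between the EU and TRAP age effects called 0 of 18660 genes by edgeR (0.0%), with 2051 at an unadjusted p under 0.05 and 168 with DESeq2, so no gene is shown here to change in one capture and not in the other. For Fabp7 that difference was -4.62 with an adjusted p of 0.35.

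**Figure D4:**
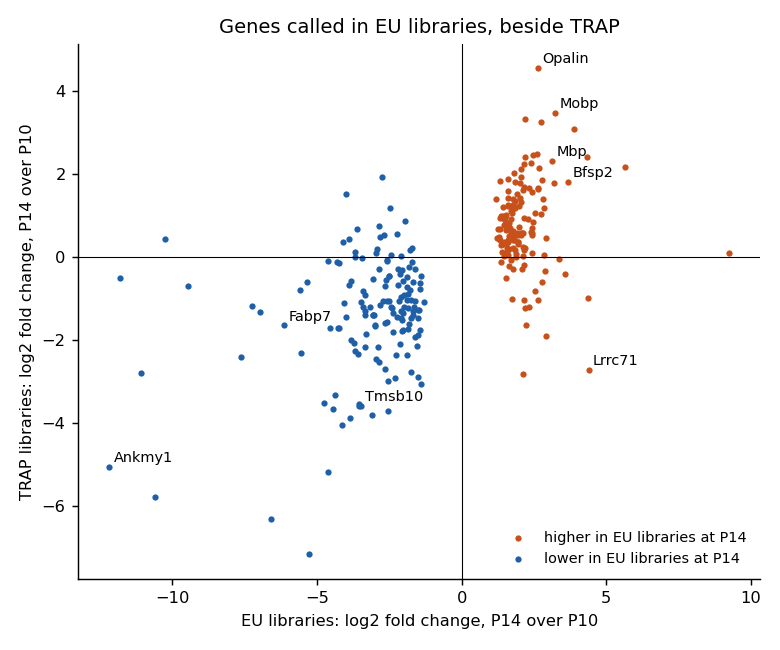
Log2 fold change of P14 over P10 in EU libraries (x axis) and TRAP libraries (y axis) for the genes called in EU libraries and tested in both. Of the higher genes (orange) 123 of 146 lie above the horizontal line, and of the lower genes (blue) 130 of 149 lie below it.

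Further EU libraries of wild-type SC, not used in the fit, place the 2 ages in a longer course. They are P10 with a 4-day chase after labelling (n = 3), 8 weeks (n = 3) and 2 P14 libraries of another title series with 2558131 and 6034129 total counts. The 8-week libraries were unlike each other. In their replicates 1 to 3, genes of the mitochondrial genome held 21.1%, 33.8% and 0.905% of all counts, and CT010467.1 held 0.15%, 23.6% and 0.855%. The chase tissue is of the same age as P14 but its label was given at P10. Because the P10 group is shared by all of these contrasts, the values are given side by side without a test. For the 148 genes called higher at P14, the median log2 difference from P10 was 0.85 in the chase, 1.9 at P14 and 1.59 at 8 weeks. For the 182 called lower it was -0.93, -2.66 and -1.96. The P14 medians are of the libraries that chose these genes.

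Mobp averaged 181 ± 42.5 CPM at P10, 670 ± 268 in the chase, 1710 ± 253 at P14 and 1761 ± 668 at 8 weeks (SD, n = 3 each), so the last 2 did not differ beyond their spread. Nefh averaged 57.8 ± 9.42, 93.8 ± 0.921, 175 ± 40.8 and 135 ± 17.2 CPM at P10, in the chase, at P14 and at 8 weeks. Snap25 was highest at 8 weeks, at 58.1 ± 27.9, 214 ± 19.7, 214 ± 56.3 and 1024 ± 441 CPM over the same 4 groups. Dpysl3 was lowest at 8 weeks, at 1297 ± 653, 434 ± 267, 314 ± 46.8 and 101 ± 21.1 CPM, and Tmsb10 likewise, at 616 ± 174, 107 ± 58.9, 55 ± 29.7 and 20.5 ± 25.9 CPM. Rps24 was lowest at P14, at 565 ± 161, 308 ± 65.7, 30.2 ± 20.4 and 151 ± 139 CPM. Bfsp2 averaged 2.92 ± 1.37, 11.7 ± 0.872, 37.7 ± 12.5 and 3.55 ± 1.13 CPM over the 4 groups, highest at P14. The 2 further P14 libraries had 0.297 and 22.5 CPM of Bfsp2, the first below and the second above every P10 library.

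**Figure D5:**
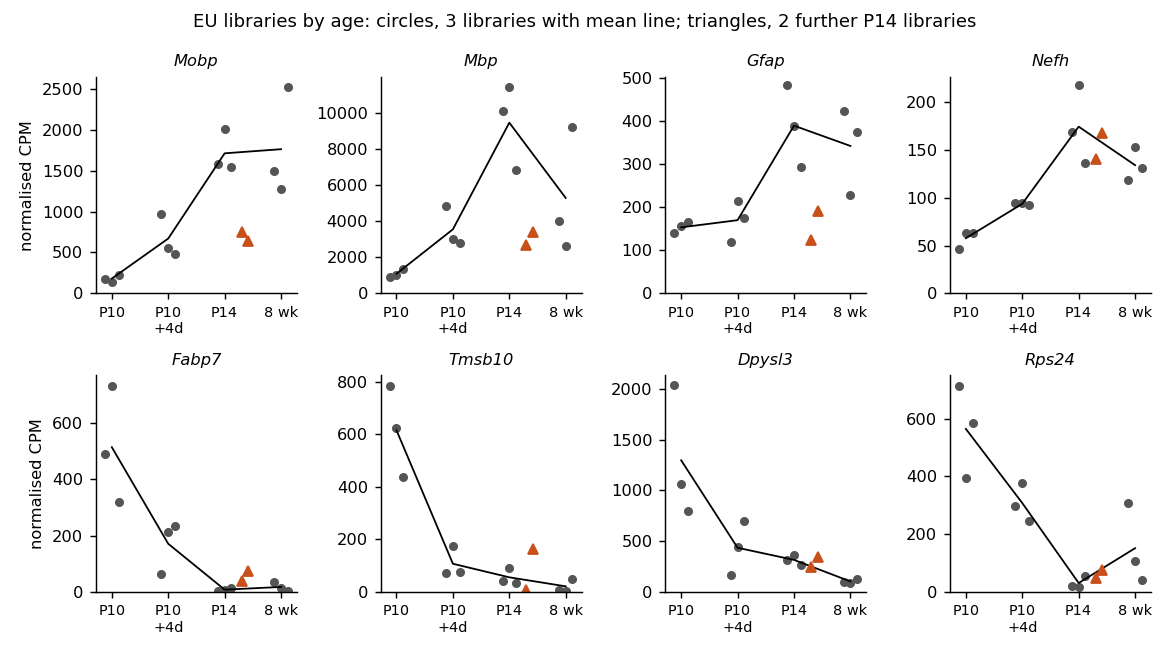
Normalised CPM in EU libraries at P10, P10 with a 4-day chase, P14 and 8 weeks (circles, 3 libraries each; line, means) and in 2 further P14 libraries (triangles) for 8 genes. Mobp, Mbp and Gfap are lower in the triangles than in the P14 circles, and Fabp7, Tmsb10, Dpysl3 and Rps24 are below the P10 mean in both.

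In the 2 further P14 libraries the median log2 difference from P10 was 0.51 for the genes called higher and -2.44 for those called lower. Mobp had 753 and 635 CPM there, above every P10 library and below every P14 library of the comparison, and Mbp had 2661 and 3387 CPM. Cnp had 294 and 731 CPM there, the first below and the second above every P10 library. Fabp7 had 38 and 74.6 CPM and Rps15a 40.9 and 65.9 CPM, below every P10 library. Gfap had 123 and 190 CPM, one below and one above all P10 libraries. With these 2 libraries added to the P14 group, 21 genes were called, all lower, among them Rps15a, Rps24, Ankmy1, Arglu1, Lyrm4, Cbx3, Gas5, Ndufa4 and Ndufa5, and no myelin gene was.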

How the data were processed

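The libraries were EU-captured RNA, or RNA labelled axon-TRAP, of mouse SC, each from 3 pooled animals. The authors deposited estimated counts and TPM (length-scaled transcript abundance) per gene, made with Salmon on mm10 per the submitters' processing notes; no version is stated there. Estimated counts were rounded, filtered (filterByExpr), scaled by TMM and tested with edgeR 4.0.16 (R 4.3.3, quasi-likelihood F test, two-sided, Benjamini-Hochberg over all tested genes, called at an adjusted p under 0.05, no block). The SE is the absolute log2 fold change over the square root of F. Alternatives were RLE scaling, other filters, DESeq2 1.42.0, limma 3.58.1 on log2(TPM + 1) and log2(TPM + 0.1) from the deposited TPM, a replicate block, a spread shared over 4 EU groups, removal of the length trend, libraries left out or added and, chosen after seeing the data, thinning and all TRAP alternatives. In data simulated for the EU comparison (15445 genes), 72 of 100 genes changed by 2 and 97 of 100 changed by 3 on the log2 scale were called, with 8 false calls. Only genes with a mean log2 CPM of at least 4 were changed, and every library was drawn from 1 shared mean profile. No simulated library stood apart as P14 replicate 3 did, so these counts do not cover that case. Coordinates are GENCODE on GRCm38, and sequences are RefSeq.

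Members and the 40 gene lists were chosen with earlier results of these data known. Named genes are the 12 largest rises and 12 largest falls among called genes whose ages did not overlap, whose symbol is not a predicted one, whose mean log2 CPM reached 4 and whose log2 fold change reached 1 in size, the 4 members of each list with the smallest p, the 3 of highest level in marker lists, and a few fixed genes. Other members and genes were named after their values were seen: Opalin, Mag, Trf, Mal, Pllp, Myrf, Pdgfra, Cspg4, Slc1a2, Aqp4, Mki67, Syt2, Sdhd, Uqcrb, Atp5k, Atp5mpl, Rpsa, Thy1 and others marked so in the text. The labels do not say whether replicates are of separate litters or days, so p-values measure the spread between these libraries, which may be technical. Some genes are not reported here.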

Additional observations from a re-analysis of the deposited data

How the results depend on the processing

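The main count of 330 was 1382 with DESeq2, 1093 without the filter on low counts, 784 with the replicate block, 21 with all 5 P14 libraries and 4 with the spread shared over 4 EU groups, and 29 to 2092 with 1 library left out. It was 388 after thinning P14 libraries to the P10 depth, an alternative chosen after seeing the data. With limma on log2(TPM + 0.1) 89 genes were higher and 222 lower, and on log2(TPM + 1) 141 and 302, a larger share of falls than the 148 and 182 of the main fit. The 75 called list members were 180 with DESeq2, 164 without the filter, 138 with the replicate block, 113 with a filter of 5 CPM, 6 with all 5 P14 libraries and 1 with the shared spread, and 11 to 229 with 1 library left out. The TRAP count of 0 was 760 with DESeq2, 833 without the filter and 0 to 235 with 1 library left out. The count of 0 for the EU and TRAP difference was 168 with DESeq2, 335 without the filter, 2 with the replicate block and 0 to 143 with 1 library left out. The cause of these shifts was not tested. Gabra3 turned to 1.1 with all 5 P14 libraries and Meg3 to 0.01 without EU P10 replicate 1 (range -0.23 to 0.01 with 1 library left out); neither was called. Of 78 named genes called in the main fit, 12 were called with each library left out in turn: Mbp, Mobp, Gprc5b, Fabp7, Tmsb10, Rps24, Rps15a, Ndufa4, Gas5, Ankmy1, Arglu1 and Lyrm4. The replicate numbers share no stated origin, so the pairing was not used. Deviations of same-numbered libraries correlated by 0.0391, 0.0403 and 0.278, and those of differently numbered libraries by -0.234 to 0.191.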

Other observations

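Further called genes outside the lists, chosen after their values were seen, include 3 that oligodendrocytes are known to express. Gsn, an actin-severing protein, had 266, 347 and 248 CPM at P14, against 62.4, 16.7 and 59.3 CPM at P10 (2.64 ± 0.46, adjusted p = 0.02 by edgeR). Gal3st1, which makes sulfatide of myelin, had 122, 225 and 124 CPM at P14, against 50, 14.9 and 44.3 CPM at P10 (2.11 ± 0.46, adjusted p = 0.043 by edgeR). Tppp, a microtubule-bundling protein, had 193, 170 and 146 CPM at P14, against 25.6, 32.5 and 67.2 CPM at P10 (2.02 ± 0.39, adjusted p = 0.029 by edgeR). All 3 were higher in each P14 library.

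Of single genes lower at P14, also chosen after their values were seen, Fabp5, a fatty acid-binding protein, had 106, 197 and 195 CPM at P14, against 732, 584 and 524 CPM at P10 (-1.89 ± 0.33, adjusted p = 0.021 by edgeR). Dbi, which binds acyl-CoA, had 25.4, 29.3 and 134 CPM at P14, against 652, 728 and 613 CPM at P10 (-3.4 ± 0.59, adjusted p = 0.02 by edgeR). Pcp4, a calmodulin-binding peptide, had 23.1, 13.3 and 66.8 CPM at P14, against 214, 345 and 234 CPM at P10 (-2.95 ± 0.54, adjusted p = 0.024 by edgeR). In Dbi and Pcp4, P14 replicate 3 was the highest of its group.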
